A study of Mus musculus with 6 samples.

Results

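Potassium channel subunit genes were followed in bulk RNA sequencing of retinas from mice with oxygen-induced retinopathy (OIR). Members were chosen by symbol: the letters Kcn, a letter from a to v, any further letters and a closing number. They also needed 60 or more counts summed over the 6 libraries, and Kcnj8, Kcnj10 and Kcng4 were left out by the rule itself. Among 32285 genes of the count matrix, 92 matched the symbol, 3 were left out by name, 16 had fewer than 60 counts and 73 became members. All 73 were among the 20021 genes tested. They fall into 34 voltage-gated alpha subunits, 11 accessory subunits of voltage-gated channels, 10 inward rectifiers, 9 two-pore channels and 9 channel genes of the calcium- or sodium-activated group. Just inside the minimum were Kcne1 with 62, Kcnj4 with 67 and Kcne4 with 76 counts, and just outside it Kcnn4 with 53, Kcnj16 with 49 and Kcnh4 with 47. The symbol pattern passes over Kcne1l, an accessory subunit gene with a total count of 1454 that RefSeq also lists as Kcne5.

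Wild-type C57BL/6J pups of both groups had been kept at 75% O2 from postnatal day (PN) 8 to PN13, which removes the capillaries of the central retina, and were studied at PN18. OIR-CIH pups underwent chronic intermittent hypoxia (CIH), 10 h a day of 266 cycles of 135 s in which O2 went from 20.95% to 5% and back, whereas OIR-Norm pups received the gas flow at constant O2. Each group holds 3 libraries, called retinas here, and since retinas that had never undergone OIR were not analysed here, every difference below is between retinas with OIR. By the methods every library came from 1 eye. RNA of Xist, which marks females, and of Y-linked genes was nevertheless found in all 6 libraries, which 1 animal of either sex would not give, so that the number of animals behind each is unclear and p-values measure the spread between libraries.

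Potassium channels let potassium ions pass down their gradient and so set the resting potential of a cell and bring it back after excitation. Voltage-gated channels open on depolarization and are built of alpha subunits, some of which do not form channels by themselves and only modify others, with accessory subunits bound to them. Inward rectifiers pass current more readily into the cell than out of it. Two-pore channels carry a steady leak, and calcium- or sodium-activated channels couple excitability to the ions that enter a cell. In the retina, photoreceptor inner segments carry a large outward potassium current, and glia clear the potassium that neurons release.

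What the pore-forming members share at the level of sequence, beside their symbols, is the stretch that codes for the selectivity filter, which is shown for 7 members that the results below turn on. Capitals mark the 15 bases of the motif, which was searched in frame on the coding strand alone. It is 5 codons long, of which the first reads ACN (N being any base), the second is free, the third and the fifth each read GGN, and the fourth starts with T. Its variants have TCN or else AGN as the first codon. Each line was read 5′ to 3′ from the GENCODE M21 models on GRCm38.
Kcnv2, chr19:27333648-27333674, plus strand: atctccACCGTGGGCTATGGAgacatg
Kcna2, chr3:107105218-107105244, plus strand: atgacaACTGTAGGCTATGGAgacatg
Kcns3, chr12:11091569-11091595, minus strand: atgaccACAGTGGGCTATGGAgacacc
Kcnh1, chr1:192337748-192337774, plus strand: ctcaccAGTGTGGGCTTTGGTaacatt
Kcnj2, chr11:111072201-111072227, plus strand: cagacaACCATTGGCTATGGTttcagg
Kcnj14, chr7:45819627-45819653, minus strand: cagacgTCCATAGGCTATGGTgtgcgc
Kcnk1, from chr8:125995802 to 126025025, plus strand, across an intron: ctctccACCACAGGCTATGGCcacacg
All of these lie in coding exons. Any of the 3 forms was found in 60 of the 60 pore-forming members and in 0 of the 13 accessory ones (the Kcnab, Kcne, Kcnip and Kcnmb genes), whereas 7.6% of 21562 protein-coding genes hold one in frame. The first form, with ACN as its leading codon, was in 51 of 60 pore-forming members and in 2.42% of all protein-coding genes. Of 6 Kcnh members 1 held this first form, and the others matched only a variant, as Kcnh1 does above. Kcnj14, the most abundant inward rectifier, matched the TCN variant and Kcnj2 the first form. The search took matches anywhere in the coding sequence, as in Kcna6 at codon 240 beside the one at codon 422. The 60 of 60 is a count and no test of the motif. A match of letters is a description of the coding sequence and of no channel property.

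A few members supplied most of the potassium channel reads. Levels are given as CPM, which are counts scaled to a common library size, with the trimmed mean of M-values (TMM) as scaling. Of the summed CPM of the 73 members 5 took 64.65% and 10 took 76.94%. Since long transcripts give more reads, levels of different genes were compared per kilobase of annotated exon, where Kcnv2 (140 CPM per kb) came before Kcnj14 (104), Kcne2 (86.3), Kcnab2 (62.5) and Kcna5 (25.5). At the other end 7 members had a mean under 1 CPM, 26 lay between 1 and 10, 33 between 10 and 100 and 7 at 100 CPM or more.

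**Figure D1:**
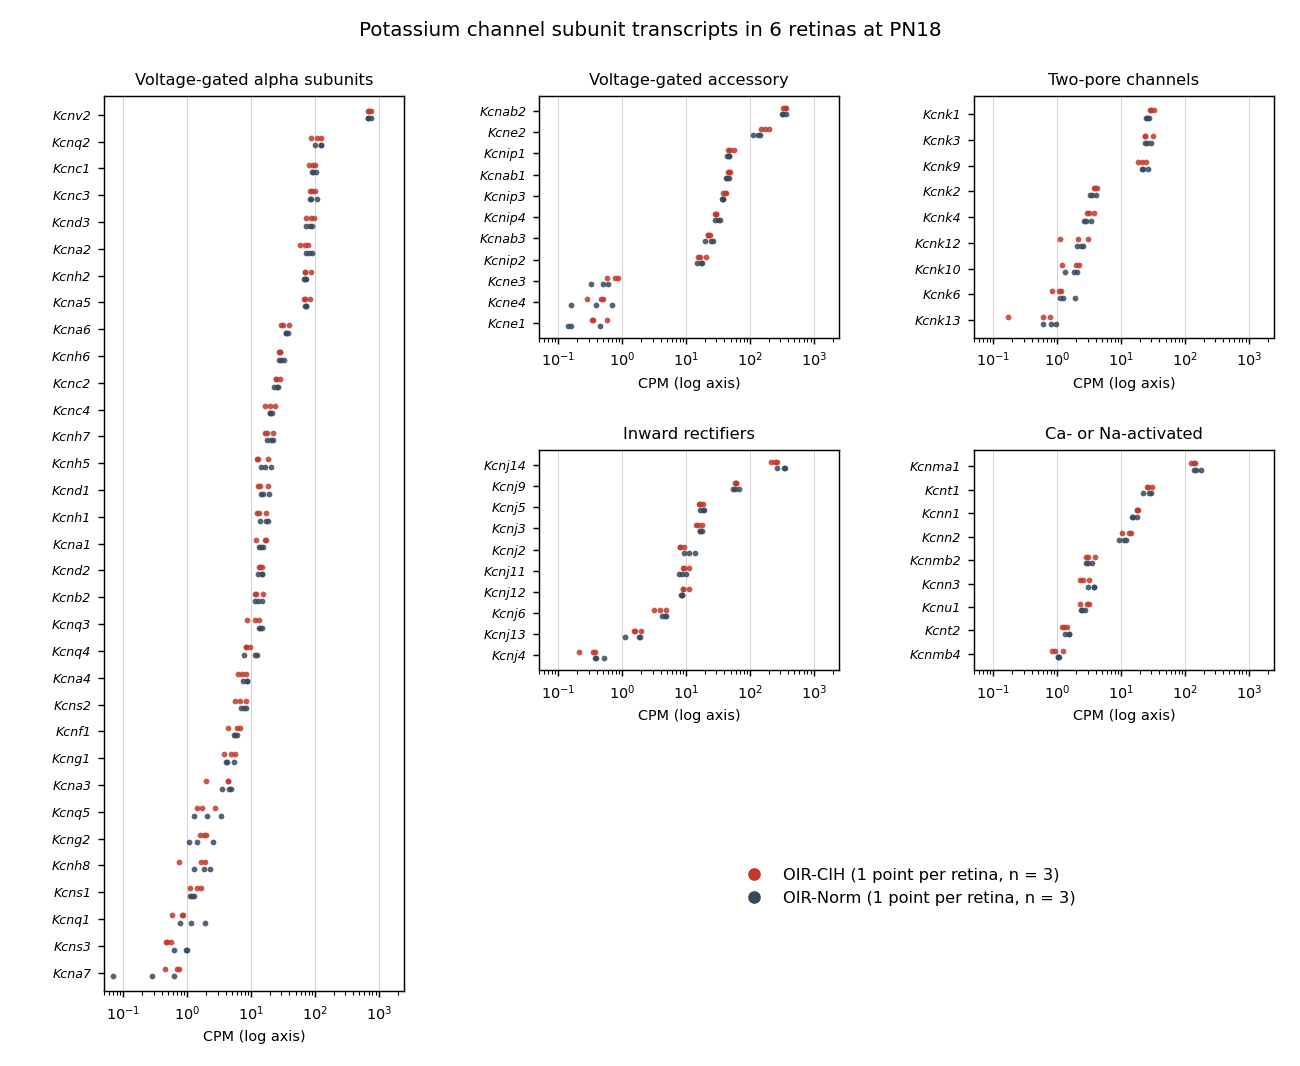
Level in CPM of 72 of the 73 members on a log axis, by family, with 1 point per retina (OIR-CIH red, OIR-Norm dark blue, n = 3 each). Kcnv2 stands highest among those drawn, the points of the groups mostly lie among each other, and the spread between retinas widens for the 7 members under 1 CPM.

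In the comparison of OIR-CIH with OIR-Norm, which asks what repeated hypoxia adds to the ischemic retina, 0 of the 73 members were called. A call needed an adjusted p under 0.05 in edgeR's quasi-likelihood test, with Benjamini-Hochberg adjustment over all genes tested, and an absolute log2 fold change over 0.5. Over all 20021 genes 63 were called, which is 0.315% (0.105% higher and 0.21% lower in OIR-CIH, and 0.377% of the genes with 60 or more counts), so that a list of this size would hold few calls at the background share. The lowest adjusted p among the members was 0.188 in edgeR, that of Kcne2, while 0.39% of all genes had one under 0.05.
At an unadjusted p under 0.05 in edgeR there were 7 members, 2 higher and 5 lower in OIR-CIH, or 9.59%, beside 13.4% of all genes tested (6.3% higher and 7.1% lower) and 14.3% of the 16713 genes with 60 or more counts. Without OIR-Norm replicate 2 this count was 2, and without OIR-Norm replicate 1 it was 10. The groups did not overlap for 8 members, 5 higher and 3 lower, or 11%, beside 18.4% of all genes tested (9.12% higher and 9.26% lower) and 19.4% of those with 60 or more counts. With DESeq2 on the same counts Kcne2 and Kcnj14 had an adjusted p under 0.05, but both stayed below the fold required for a call.

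The members' differences were small and lay on both sides of 0. There were 33 members with a log2 fold change above 0 and 40 below it, with a median of -0.03 beside -0.01 over all genes tested. The 95% interval of the log2 fold change lay wholly within 0.5 of 0 for 43 of 73 members (58.9%), beside 54.4% of all genes tested and 65.2% of those with 60 or more counts, so that for these a change of that size was outside the interval. It did so for 35 of the 40 members with a mean of at least 10 CPM, for 8 of 26 between 1 and 10 CPM and for 0 of 7 under 1 CPM. For the scarce members a change of this size thus lay within the interval, and counting error and the spread between retinas were not separated. The 6 members with an estimate beyond 0.5, chosen by this value after it was seen, were Kcna7 (0.88), Kcne1 (0.74), Kcne3 (0.62), Kcnk13 (-0.58), Kcnq1 (-0.70) and Kcns3 (-0.74), of which Kcnq1 had a mean of 1.02 CPM and the others less than 1. Leaving out 1 retina brought all but Kcns3 within 0.5, namely Kcna7 (0.45) and Kcnq1 (-0.32) without OIR-Norm replicate 2, Kcne3 (0.41) without OIR-Norm replicate 1, and Kcne1 (0.46) and Kcnk13 (-0.19) without OIR-CIH replicate 2.

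**Figure D2:**
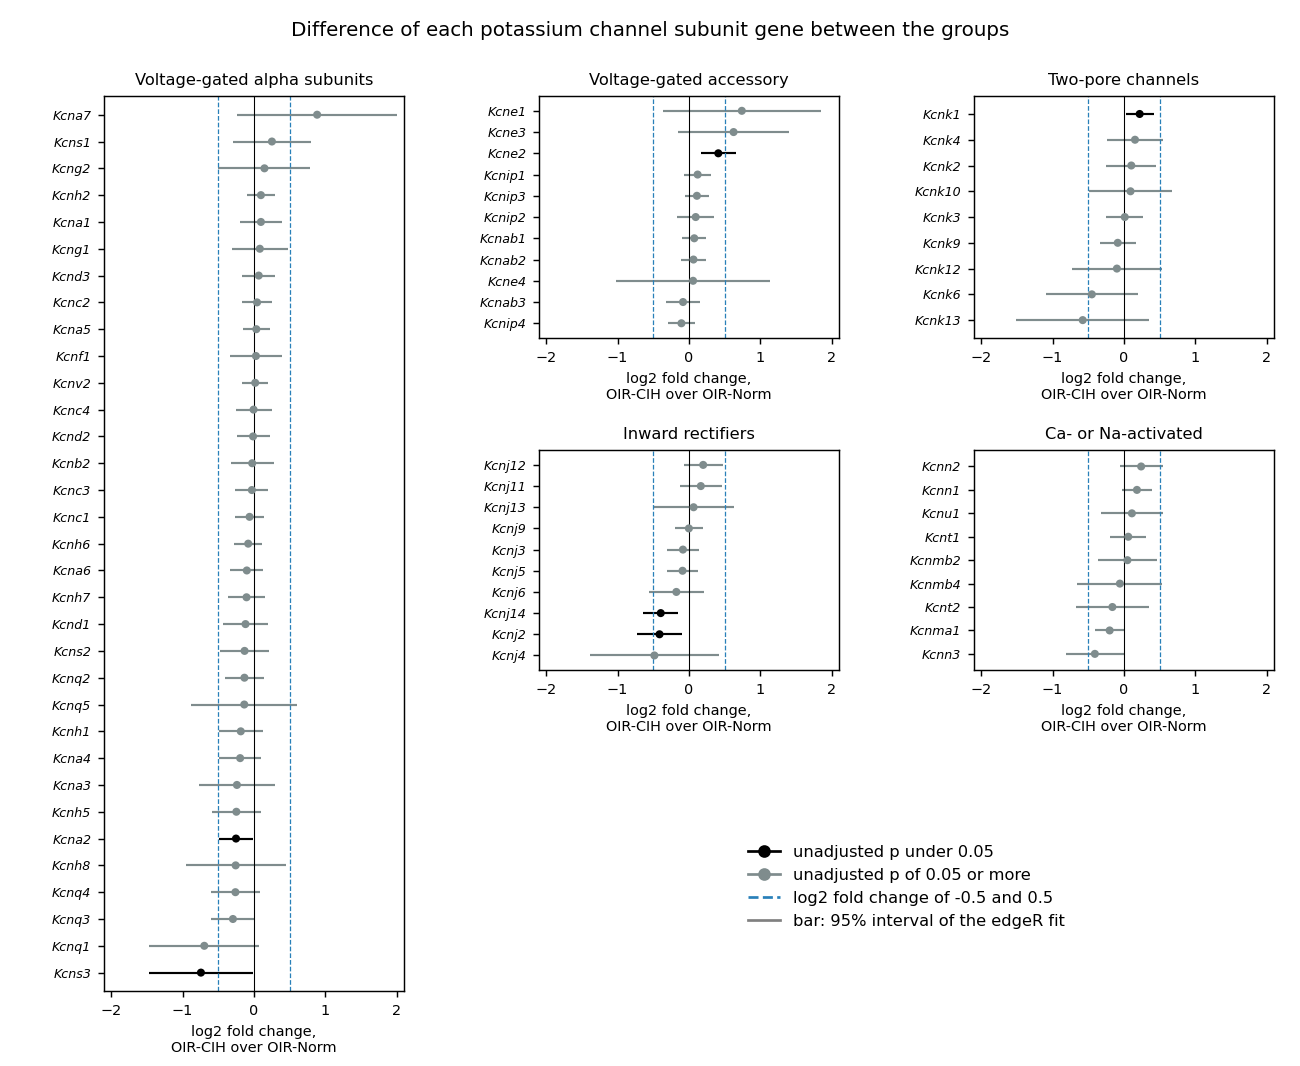
Log2 fold change of 72 of the 73 members in OIR-CIH over OIR-Norm with its 95% interval from the edgeR fit, by family, where black marks the members with an unadjusted p under 0.05 and dashed lines mark -0.5 and 0.5. Most points lie near 0, and the wide intervals belong to members with few counts.

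Voltage-gated alpha subunits had 11 members above and 23 below 0, with a median log2 fold change of -0.09. The median was -0.01 without OIR-CIH replicate 1 and -0.02 without OIR-Norm replicate 2. Their summed CPM was 2720, 2820 and 2796 in OIR-CIH against 3124, 2982 and 2866 in OIR-Norm. All 3 OIR-CIH sums were below all 3 OIR-Norm sums, with a log2 ratio of the means of -0.11. This difference rested on the abundant members, since without the 3 of 100 CPM or more the sums overlapped (log2 ratio -0.05).

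Kcnv2, which gives no current by itself and modifies other alpha subunits in photoreceptors, stood at 756, 681 and 714 CPM in OIR-CIH and at 763, 677 and 686 CPM in OIR-Norm. These overlapped throughout, and the 95% interval of the log2 fold change of 0.02 ran from -0.17 to 0.20.

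Kcna2, an axonal channel of the Shaker group, had 58.0, 77.9 and 71.3 CPM in OIR-CIH and 73.4, 91.1 and 82.4 CPM in OIR-Norm. The groups overlapped, and the log2 fold change was -0.25 (adjusted p = 0.356 by edgeR), or -0.35 without OIR-CIH replicate 2 and -0.15 without OIR-CIH replicate 1. Kcns3, a silent subunit that modifies other channels, was scarce, with 0.47, 0.49 and 0.56 CPM against 0.62, 0.95 and 1.01 CPM. The retinas of OIR-CIH were all lower, but each value rests on 12 to 32 reads. Kcnq3, a subunit of the neuronal M current, had means of 11.2 and 13.9 CPM and overlapped. Kcnh1, a slow channel of photoreceptors and other neurons, had means of 14.4 and 16.5 CPM in OIR-CIH and OIR-Norm and a log2 fold change of -0.19. Its estimate was -0.36 without OIR-CIH replicate 3 and -0.09 without OIR-Norm replicate 1. For 3 genes of fast-spiking neurons, whose channels shorten the action potential, the estimates from all 6 retinas were within 0.1 of 0. They were -0.06 for Kcnc1, 0.04 for Kcnc2 and 0.10 for Kcna1. Without single retinas they ran from -0.14 to 0.02 for Kcnc1, from -0.03 to 0.09 for Kcnc2 and from 0.00054 to 0.24 for Kcna1.

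Accessory subunits of voltage-gated channels had 9 members above and 2 below 0, with a median log2 fold change of 0.09. The median was 0.03 without OIR-CIH replicate 3 and 0.14 without OIR-CIH replicate 2. Their summed CPM was 762, 714 and 742 in OIR-CIH and 707, 643 and 673 in OIR-Norm, so that the groups did not overlap. As a share of all member reads they took 17.1% to 18.4% in OIR-CIH and 14.7% to 15.5% in OIR-Norm. The total behind this share was itself lower in OIR-CIH, at 4145, 4183 and 4232 CPM against 4595, 4358 and 4326 CPM in OIR-Norm. The shares thus do not measure accessory RNA alone. Without Kcnab2 and Kcne2, the leading pair, the accessory sums overlapped and their log2 ratio went from 0.13 to 0.05.

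Kcne2, a small membrane protein that alters the gating of several channels and is known from epithelia such as the choroid plexus, was the member with the lowest p. Its level was 199, 173 and 151 CPM in OIR-CIH and 145, 113 and 135 CPM in OIR-Norm. All OIR-CIH retinas were above all OIR-Norm retinas, by 0.41 ± 0.11 (SE) on the log2 scale or 32.9%, with an adjusted p of 0.188 by edgeR.
Some markers of the retinal pigment epithelium (RPE), the pigmented sheet behind the photoreceptors that may come along in dissection, were higher as well. The summed level of 5 such markers, of which Ttr and Rgr held 84.1%, was 398, 286 and 266 CPM in OIR-CIH and 263, 169 and 165 CPM in OIR-Norm, again without overlap. Ttr, Rpe65 and Rgr were higher at an unadjusted p under 0.05 by edgeR, with log2 fold changes of 0.75, 0.65 and 0.59. The other two had estimates below 0, -0.88 for Mlana (2.08 against 3.95 CPM, unadjusted p = 0.0665 by edgeR) and -0.19 for Best1. None was at 0 and 0 of 5 were called. Within OIR-CIH the order of the retinas was the same for Kcne2 and for this sum, but within OIR-Norm it was not, since replicate 2 had more of the markers than replicate 3 and less Kcne2. OIR-Norm replicate 1, at 263 CPM of RPE markers, lay close to OIR-CIH replicate 3 at 266, and their Kcne2 levels were 145 and 151 CPM. The part of RPE RNA in the Kcne2 difference was not tested. Kcnj13, the inward rectifier of the RPE, had 2.001, 1.595 and 1.53 CPM in OIR-CIH and 1.92, 1.86 and 1.10 CPM in OIR-Norm, which overlap. Of its 1270 exon bases 623 are shared with Gigyf2 on the opposite strand. Since the counted strand is not stated, reads from there cannot be assigned to Kcnj13.

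Kcnab2, a beta subunit of Shaker-type channels related to oxidoreductases, took the most reads of the accessory members and gave 361, 337 and 371 CPM against 370.0, 322 and 331 CPM. Its groups overlapped, with a 95% interval of the log2 fold change from -0.11 to 0.24. Kcnip3, a calcium-binding partner of channels of the Kcnd group and one of the 3 members outside the rule for named genes whose groups lay apart, had 41.3, 38.6 and 41.8 CPM against 37.4, 37.7 and 37.7 CPM. The distance was small, with a log2 fold change of 0.11 and an unadjusted p of 0.168 by edgeR. The scarce Kcne1 and Kcne4 had 0.43 and 0.42 CPM on average in OIR-CIH and 0.25 and 0.42 CPM in OIR-Norm. For Kcne4 the 95% interval of the log2 fold change ran from -1.03 to 1.14.

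**Figure D3:**
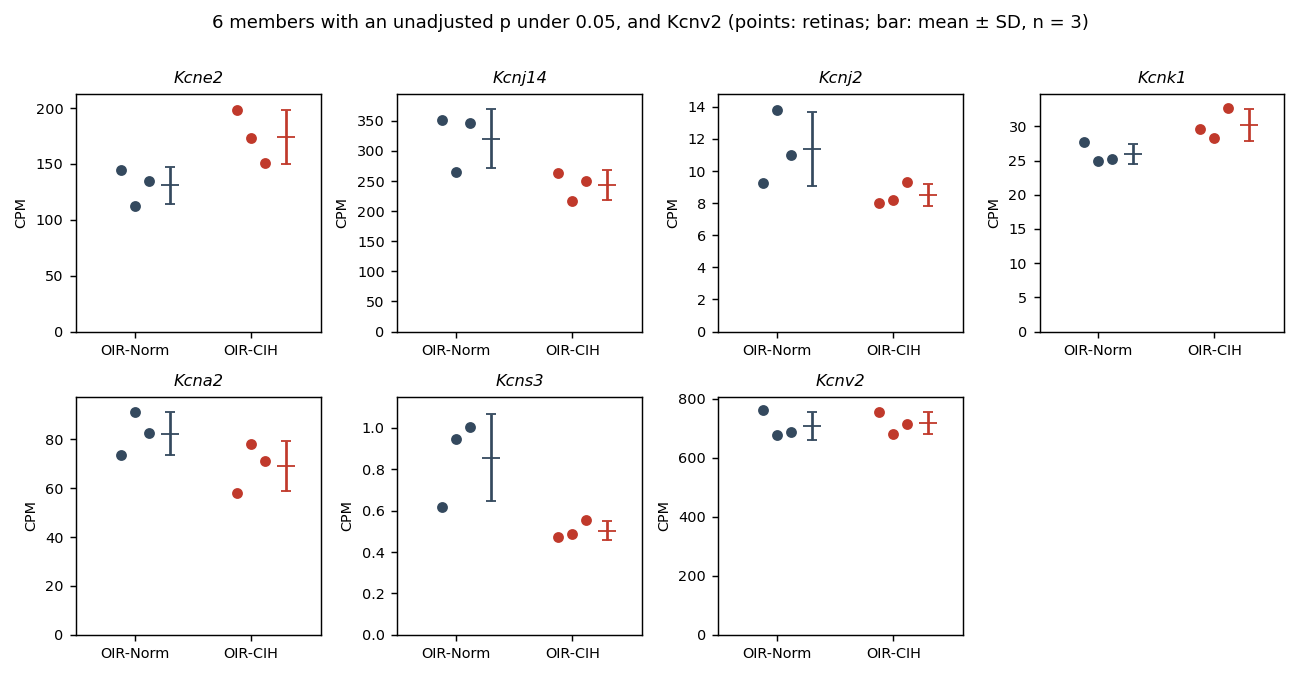
CPM of 6 members with an unadjusted p under 0.05 and of Kcnv2 in each retina (points) with the mean ± SD of each group (n = 3), all axes starting at 0. Kcne2 and Kcnk1 lie higher and Kcnj14 and Kcns3 lower in all OIR-CIH retinas, Kcnj2 and Kcna2 touch or overlap, and Kcnv2 does not separate.

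Inward rectifiers had 3 members above and 7 below 0, and a median log2 fold change of -0.09. Their summed CPM was 387, 343 and 385 in OIR-CIH and 471, 399 and 486 in OIR-Norm. The groups lay apart, with a log2 ratio of -0.28, the widest of the 5 families. The ratio came from Kcnj14, which held 68.5% of the family's reads, and without it the sums overlapped at a log2 ratio of -0.04.

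Kcnj14, an inward rectifier of neurons on the photoreceptor list used here, had 264, 217 and 251 CPM in OIR-CIH and 351, 265 and 346 CPM in OIR-Norm. The groups did not overlap, although OIR-CIH replicate 1 and OIR-Norm replicate 2 came within 1 CPM of each other. The log2 fold change was -0.40 ± 0.11 (SE) with an adjusted p of 0.208 by edgeR, or 24.0% lower. The adjusted p by edgeR was 0.0551 without OIR-Norm replicate 2 and between 0.256 and 0.393 without each of the other retinas. All 5 rod markers had estimates above 0, none was at 0 and 0 were called. Their sum of 47230 to 54945 CPM in OIR-CIH overlapped the 41987 to 55167 CPM of OIR-Norm. Within each group, however, the order of the retinas was the same for Kcnj14 and for this sum. The part of rod RNA in the Kcnj14 values was not tested. In bulk tissue fewer cells of a type and less RNA per cell cannot be told apart.

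Kcnj2, a strong rectifier of muscle, vessels and microglia, had 8.01, 8.18 and 9.29 CPM in OIR-CIH and 9.28, 13.8 and 11.03 CPM in OIR-Norm. The highest OIR-CIH retina and the lowest OIR-Norm retina met. The log2 fold change was -0.41 (adjusted p = 0.290 by edgeR), or -0.54 without OIR-Norm replicate 1 and -0.25 without OIR-Norm replicate 2. The 4 subunits of channels opened by G proteins, Kcnj3, Kcnj5, Kcnj6 and Kcnj9, had log2 fold changes between -0.18 and -0.0016, none with an unadjusted p under 0.05. Among them Kcnj9 had the highest level per length (14.1 CPM per kb), and it stood at 60.6 ± 1.0 CPM in OIR-CIH and 60.6 ± 7.5 CPM in OIR-Norm (SD, n = 3). Kcnj12, a close relative of Kcnj2 named because its groups lay apart, went the other way, with 9.14, 8.98 and 11.3 CPM against 8.73, 8.28 and 8.80 CPM. Its log2 fold change was 0.20, or 0.07 without OIR-CIH replicate 3 and 0.26 without OIR-CIH replicate 2.

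Two-pore channels did not separate, with 5 members above and 4 below 0 and a median of 0.01, which was -0.09 without OIR-CIH replicate 3 and 0.13 without OIR-CIH replicate 1. Their sums were 83.5, 89.7 and 99.4 CPM in OIR-CIH and 90.7, 90.5 and 83.2 CPM in OIR-Norm, about 2% of member reads in every retina (1.92% to 2.35%). Kcnk1, a weakly conducting leak channel, was the member with the lowest p of the family at 29.6, 28.3 and 32.7 CPM against 27.7, 25.0 and 25.2 CPM. The groups lay just apart, with a log2 fold change of 0.22 and a 95% interval from 0.02 to 0.41 (adjusted p = 0.329 by edgeR). Its exons share 179 bases with an antisense gene, and with the counted strand not stated the reads of that stretch cannot be assigned. The same limit holds for other members given here. Among them are Kcnj3 (1621 of 5215 exon bases), Kcnma1 (1016 bases), Kcnk3 (229), Kcnj9 (172) and Kcnn1 (132). Kcnk3 and Kcnk9, acid-sensitive leak channels, had log2 fold changes of 0.01 and -0.09. Kcnk3 ranged from 23.6 to 31.4 CPM in OIR-CIH and from 24.1 to 29.2 CPM in OIR-Norm, and Kcnk9 from 18.8 to 24.6 and from 21.3 to 26.3 CPM.

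Calcium- or sodium-activated channel genes had 5 members above and 4 below 0, and overlapping sums of 192, 216 and 209 CPM in OIR-CIH and 202, 244 and 218 CPM in OIR-Norm. Kcnma1, the large-conductance channel opened by voltage and calcium, held 68.5% of these reads. Its level was 126, 143 and 139 CPM in OIR-CIH and 139, 179 and 151 CPM in OIR-Norm, which overlap. The log2 fold change was -0.20 (adjusted p = 0.387 by edgeR), or -0.28 without OIR-Norm replicate 1 and -0.09 without OIR-Norm replicate 2. Without this gene the log2 ratio of the sums went from -0.11 to 0.10. Kcnn3, a small-conductance channel, had means of 2.68 and 3.54 CPM in OIR-CIH and OIR-Norm and also overlapped. Its relative Kcnn1, named because its groups lay apart, had 18.1, 18.3 and 18.2 CPM against 17.7, 14.7 and 15.7 CPM, a log2 fold change of 0.18. Kcnt1, the sodium-activated channel, was at 27.6 ± 2.5 and 26.5 ± 4.0 CPM (SD, n = 3).

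**Figure D4:**
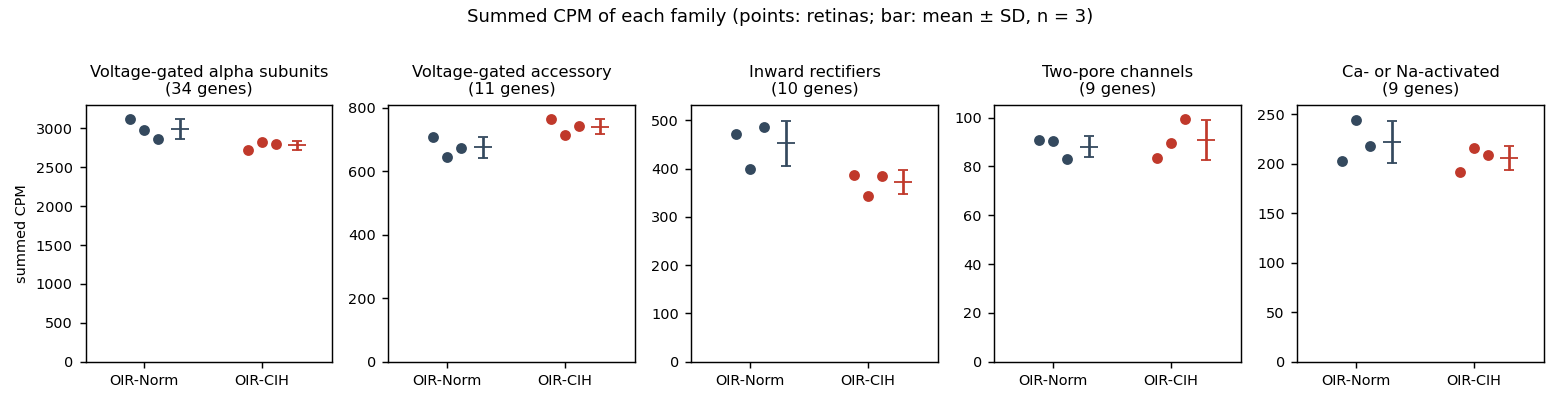
Summed CPM of each family in each retina (points) with the mean ± SD of each group (n = 3), each axis starting at 0. Voltage-gated alpha subunits and inward rectifiers are lower and accessory subunits higher in all 3 OIR-CIH retinas, whereas two-pore and calcium- or sodium-activated channel sums overlap.

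Read by the cells known to use them, no list had a called member. On the photoreceptor list the log2 fold change was 0.02 for Kcnv2, -0.19 for Kcnh1 and -0.40 for Kcnj14. The channels of microglia, the resident macrophages, were all below 0 for the 4 that are members: -0.58 for Kcnk13, -0.45 for Kcnk6, -0.41 for Kcnj2 and -0.24 for Kcna3. None was called, and each estimate moved when 1 retina was left out. At its highest it was -0.19 for Kcnk13 without OIR-CIH replicate 2, and -0.18 for Kcnk6 and -0.25 for Kcnj2 without OIR-Norm replicate 2. For Kcna3 it was at most 0.01, without OIR-CIH replicate 1. At its lowest it was -0.90 for Kcnk13 (without OIR-CIH replicate 1) and -0.61 for Kcnk6 (without OIR-Norm replicate 3). For Kcnj2 the lowest was -0.54 (without OIR-Norm replicate 1) and for Kcna3 -0.41 (without OIR-CIH replicate 3). Kcnn4, the fifth on that list, had too few counts to be a member.
Microglial markers were mostly lower as well. Their sum was 48.7, 46.0 and 55.4 CPM in OIR-CIH and 67.0, 76.3 and 59.7 CPM in OIR-Norm, without overlap, with 4 of 5 markers lower, none at 0 and 1 of 5 called (Mpeg1, log2 fold change -0.71, adjusted p = 0.0123 by edgeR). Kcnk13 had 0.78, 0.17 and 0.61 CPM in OIR-CIH and 0.81, 0.95 and 0.60 CPM in OIR-Norm, so that the groups overlapped at a level of 5 to 27 reads per retina. In OIR-Norm replicate 2 the microglial sum, Kcnk13, Kcnk6 and Kcnj2 were at their highest, but Kcna3 was at its lowest of OIR-Norm (3.54 CPM). All 5 pericyte and smooth muscle markers and all 5 endothelial markers also had estimates below 0, with 0 called and overlapping sums. Whether the share of microglia or of vascular cells bears on these 4 genes was not tested.

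Members known as oxygen-sensitive channels of the carotid body and pulmonary artery were of interest in a study of hypoxia. Of the 5 (Kcnk3, Kcnk9, Kcnma1, Kcna2 and Kcns3) 1 was above and 4 below 0, with a median log2 fold change of -0.20, and only Kcna2 and Kcns3 had an unadjusted p under 0.05 by edgeR. Over all genes tested the share under this p was 13.4%. The unadjusted p of Kcna2 by edgeR was 0.190 without OIR-CIH replicate 1 and 0.0129 without OIR-CIH replicate 2. For Kcns3 it was 0.0203 without OIR-Norm replicate 1 and between 0.0641 and 0.142 without each of the other retinas. In the same test 0 of the 5 were called. Kcna5, a channel of arterial smooth muscle, was at 66.9, 70.3 and 83.7 CPM in OIR-CIH and 72.1, 70.4 and 73.7 CPM in OIR-Norm, with an interval from -0.16 to 0.23 on the log2 scale.

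Other genes of potassium handling were listed as well, namely further channel partners, pacemaker channels, subunits of the sodium-potassium pump and cation-chloride or potassium-dependent exchangers. Of 29 genes 27 were tested, with 15 above and 12 below 0, a median log2 fold change of 0.02 and 0 called. Without OIR-CIH replicate 3 the count called by edgeR was 1, and by DESeq2 it was 1 as well.

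The total count per library was between 26289905 and 38010151, and the members' own totals started at 62. OIR-CIH replicate 1 gave the lowest value of the 6 retinas for 27 of 73 members and the highest for 4. Lens markers summed to 329 CPM in OIR-Norm replicate 2 and to between 9.5 and 60.3 CPM in the others, and its pericyte and smooth muscle sum of 208 CPM was also the highest of the 6, beside 78.8 to 139 CPM. The part of this tissue in the members' values was not tested. With 3 against 3 retinas the exact permutation test of 1 gene reaches at best p = 0.1, which was the value for each of the 8 members whose groups lay apart.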

How the data were processed

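Retinal RNA of 3 OIR-CIH and 3 OIR-Norm libraries was prepared from 250 ng of total RNA with a stranded poly(A) kit. The authors aligned reads with STAR (version 2.7.9a in the submitters' processing notes) and deposited the reads counted on each gene as raw counts. Their own test with DESeq left out genes under 10 counts in all and asked for an adjusted p under 0.05 and, up or down, over 0.5 on the log2 scale. The processing notes name GRCm38, the methods a later annotation release, and the strand column that was kept is not given in the sources used here.

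Gene identifiers were matched to GENCODE M21, whose models gave symbols, coordinates, exon lengths and coding sequences, and 127 identifiers had no symbol. Genes with 10 or more counts in all were tested with edgeR 4.0.16 in R 4.3.3 (TMM scaling, glmQLFit with bias-adjusted deviances, glmQLFTest, Benjamini-Hochberg adjustment over 20021 genes), with the study's thresholds for a call. The script was tested on simulated counts. Family sums are CPM scaled by TMM, with no test. Exact permutation tests over the 6 retinas were two-sided.

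The members and lists were chosen with earlier results of these data known. Full statistics go to the 5 members with the lowest p; named besides are members with an adjusted p under 0.05, the 10 lowest p, the 2 most abundant members of each family, the members of the lists by cell, and those beside the count minimum. Members named because their groups lay apart or their estimate was beyond 0.5 were added after their values were seen. Replicate numbers were not taken to pair the samples in the main test. Alternatives were DESeq2 1.42.0, limma 3.58.1 on log2(CPM + 0.5), limma-voom, legacy edgeR, other scalings and filters, a replicate block, other count minimums for members and leaving out each retina. Family sums without their leading genes were chosen after seeing the data. Some items that these rules would name are not reported here.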

Additional observations from a re-analysis of the deposited data

How the results depend on the processing

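In every alternative 0 of the 73 members were called, DESeq2, other scalings and filters, no minimum fold change and each left-out retina included. The count over all genes went from 63 to 135 with DESeq2, where Kcne2 had an adjusted p of 0.0243 and Kcnj14 of 0.0314 and 4 members had none. It was between 29 (without OIR-CIH replicate 1) and 93 (without OIR-Norm replicate 3) when retinas were left out. Members with an unadjusted p under 0.05 numbered 2 to 10 without single retinas, 2 without OIR-Norm replicate 2 and 10 without OIR-Norm replicate 1, and 7 to 9 in the other settings. Of the other potassium handling genes 1 was called by DESeq2 and 0 to 1 without single retinas, 1 without OIR-CIH replicate 3. Without single retinas the median log2 fold change was 0.028 to 0.14 for accessory subunits, -0.12 to -0.012 for alpha subunits, -0.13 to -0.046 for inward rectifiers, -0.090 to 0.13 for two-pore channels and -0.062 to 0.091 for calcium- or sodium-activated channels, the last pair with a change of sign. The log2 ratio of the summed CPM of calcium- or sodium-activated channels was -0.031 without OIR-Norm replicate 2, and that of two-pore channels -0.026 without OIR-CIH replicate 3. Without their leading genes the log2 ratios of the summed CPM were -0.051 for alpha subunits (without the 3 of 100 CPM or more), 0.050 for accessory subunits, -0.039 for inward rectifiers and 0.096 for calcium- or sodium-activated channels.

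The same-numbered retinas of the groups correlated at 0.162, 0.143 and -0.238 in their deviations from the group means. Retinas with different numbers correlated at -0.404 to 0.224. No pairing by number was seen, but with 3 retinas in each group this cannot exclude one. With the replicate block 0 members were called, and the lowest adjusted p by edgeR was 0.0617, that of Kcnj14.

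Of 36 named members under 15 settings, 511 of 540 values kept their direction and 29 values of 11 members did not, of which 10 had an estimate within 0.1 of 0 and Kcna3 one of -0.24. These were Kcnv2 with library totals (-0.011), Kcnj9 with limma (0.0055), limma-voom (0.0053), no filter (0.0012) and the replicate block (0.0037), and Kcnk3 with limma (-0.0021) and library totals (-0.015). Without single retinas the ranges of those that changed direction were -0.025 to 0.068 for Kcnv2, -0.081 to 0.10 for Kcnj9, -0.14 to 0.091 for Kcnk3, -0.062 to 0.15 for Kcnt1, -0.41 to 0.012 for Kcna3, -0.16 to 0.20 for Kcnj13, -0.074 to 0.094 for Kcna5, -0.18 to 0.013 for Kcnk9, -0.14 to 0.021 for Kcnc1, -0.034 to 0.093 for Kcnc2 and -0.35 to 0.63 for Kcne4. The cause was not tested. The intervals of the 7 members under 1 CPM all reach beyond 0.5, and the parts of counting error and of the spread between retinas were not separated.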

Other observations

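Of the 16 symbols that matched the pattern but had fewer than 60 counts, 11 were tested and 5 were not. Genes whose symbols start with Kcn but follow another pattern gave no call. Kcnq1ot1, the long antisense RNA of the Kcnq1 locus, was at 18.8, 34.8 and 15.8 CPM in OIR-CIH and 28.4, 30.9 and 36.4 CPM in OIR-Norm, which overlap (log2 fold change -0.47, adjusted p = 0.386 by edgeR). Kcne1l was at 7.46, 8.56 and 9.37 CPM against 8.05, 7.61 and 6.22 CPM (log2 fold change 0.22, adjusted p = 0.510 by edgeR).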
